A study of Mus musculus with 2 samples.

Results

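The genes of the glucocorticoid and corticotropin-releasing hormone (CRH) stress axis were examined in a list of binding sites of the transcription factor EGR1 in mouse frontal cortex. The 8 genes are Nr3c1, Nr3c2, Fkbp5, Hsd11b1, Sgk1, Crh, Crhr1 and Crhr2, out of 21951 protein-coding genes of GENCODE M21. A peak was assigned to a gene when its centre lay in the gene body or within 10 kb of any of the gene's transcription start sites (TSSs), and 12 of the 12014 EGR1 peaks met this rule. Crhr1 had 5 of them, Fkbp5 had 3, Nr3c1 had 2, and Nr3c2 and Sgk1 had 1 each. Hsd11b1, Crh and Crhr2 had 0.

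EGR1 ChIP-seq, in which DNA bound by EGR1 is pulled down with an antibody and sequenced, was performed in duplicate on the frontal cortex of 6-week-old males, F1 hybrids of the strains 129SvEv and C57BL/6N for which the labels name no mutation or treatment. Each ChIP was made from several mice pooled, and the whole dissected cortex was used, so neurons and glia were not separated. The deposited list is the merge of 2 replicates and gives the position and the irreproducible discovery rate (IDR) of each peak, a measure that falls as a peak's rank becomes higher and more alike between the replicates, with 2% as the upper limit. There is no second condition, no read count and no value of a single replicate, so the results below are positions, counts and sequence features without a spread between replicates, and the identity of the tissue could not be checked against marker expression.

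In the stress axis, CRH from the hypothalamus makes the pituitary release corticotropin, which drives glucocorticoid secretion from the adrenal cortex. Glucocorticoids cross into cells and bind the glucocorticoid receptor (Nr3c1) and the mineralocorticoid receptor (Nr3c2), ligand-activated transcription factors that are held by chaperones until the hormone binds, and they shut the axis down again through receptors in the brain and pituitary. CRH also acts inside the cortex, through the G protein-coupled receptors CRHR1 and CRHR2. EGR1 is a zinc-finger factor of the immediate-early class, made rapidly after neuronal activity, and binds a GC-rich element.

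The sequences of 5 peaks are shown because they carry the main contrasts among the 12. They are printed 5′ to 3′ on the plus strand of mm10 (GRCm38.p6), with capitals marking the EGR1 motif, searched on both strands as GCGTGGGCG or GCGGGGGCG. In the first pair, from Fkbp5, capitals mark exact sites, and in the other 3 they mark a site with 1 mismatch. Fkbp5 peak 2 (chr17:28523099-28523221) is the one with a pair of exact sites. Fkbp5 peak 3 is printed from the 9-base site that crosses its edge at the TSS to its far end (chr17:28486144-28486313). Crhr1 peak 3 (chr11:104133626-104133875) is in the promoter cluster and Crhr1 peak 4 (chr11:104158075-104158239) far inside the gene. Nr3c2 peak 1 (chr8:77173482-77173745) is an intronic peak of low CpG content.
Fkbp5 peak 2: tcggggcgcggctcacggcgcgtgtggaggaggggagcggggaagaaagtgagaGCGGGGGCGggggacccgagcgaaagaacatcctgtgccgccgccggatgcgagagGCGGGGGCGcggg
Fkbp5 peak 3: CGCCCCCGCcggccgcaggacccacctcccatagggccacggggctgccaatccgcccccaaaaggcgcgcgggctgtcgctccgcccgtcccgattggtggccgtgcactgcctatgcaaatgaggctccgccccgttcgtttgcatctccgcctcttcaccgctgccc
Crhr1 peak 3: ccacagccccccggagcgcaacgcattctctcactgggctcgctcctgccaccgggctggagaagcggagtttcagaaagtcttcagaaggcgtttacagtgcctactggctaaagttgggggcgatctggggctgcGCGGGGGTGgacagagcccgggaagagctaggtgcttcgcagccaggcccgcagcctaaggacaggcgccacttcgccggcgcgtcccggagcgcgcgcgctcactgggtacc
Crhr1 peak 4: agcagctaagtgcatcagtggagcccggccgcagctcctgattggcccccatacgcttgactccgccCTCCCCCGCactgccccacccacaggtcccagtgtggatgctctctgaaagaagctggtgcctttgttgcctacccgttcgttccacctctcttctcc
Nr3c2 peak 1: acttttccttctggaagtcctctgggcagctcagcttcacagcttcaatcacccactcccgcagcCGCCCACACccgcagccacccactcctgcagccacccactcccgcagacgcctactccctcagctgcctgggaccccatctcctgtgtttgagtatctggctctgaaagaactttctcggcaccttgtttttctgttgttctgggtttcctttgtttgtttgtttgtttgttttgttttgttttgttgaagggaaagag

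By gene, 5 of the 8 had at least 1 assigned peak, against 39.6% of all protein-coding genes. A peak within 2 kb of a TSS was found for 4 of them (Nr3c1, Fkbp5, Sgk1 and Crhr1), against 29.6% of all protein-coding genes. Both shares were higher among longer genes. A peak was assigned to 25.9% of the genes in the shortest quartile and 55.7% of those in the longest. For a peak within 2 kb of a TSS these shares were 16.4% and 42.0%. Of the 5 genes with a peak, 4 (Nr3c1, Nr3c2, Fkbp5 and Sgk1) belong to the longest quartile. Crhr1, at 42.67 kb, was the exception. Only 0.802% of all protein-coding genes had 5 or more peaks, and 0.549% of the 4005 genes within a 1.5-fold range of its length. Fkbp5 was in the upper range too, as 4.82% of all genes and 8.81% of those of like length had 3 or more peaks. With a TSS window of 5 kb in place of 10 kb, Fkbp5 kept 1 peak, and with the TSS window alone, without the gene body, or at an IDR of 0.001 or less, Crhr1 kept 3. The shares of all genes with as many peaks at those settings are not given here. The 2 peaks of Nr3c1 were matched or exceeded in 22.4% of genes of like length, and the single peak of Nr3c2 in 67.2%.

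**Figure D1:**
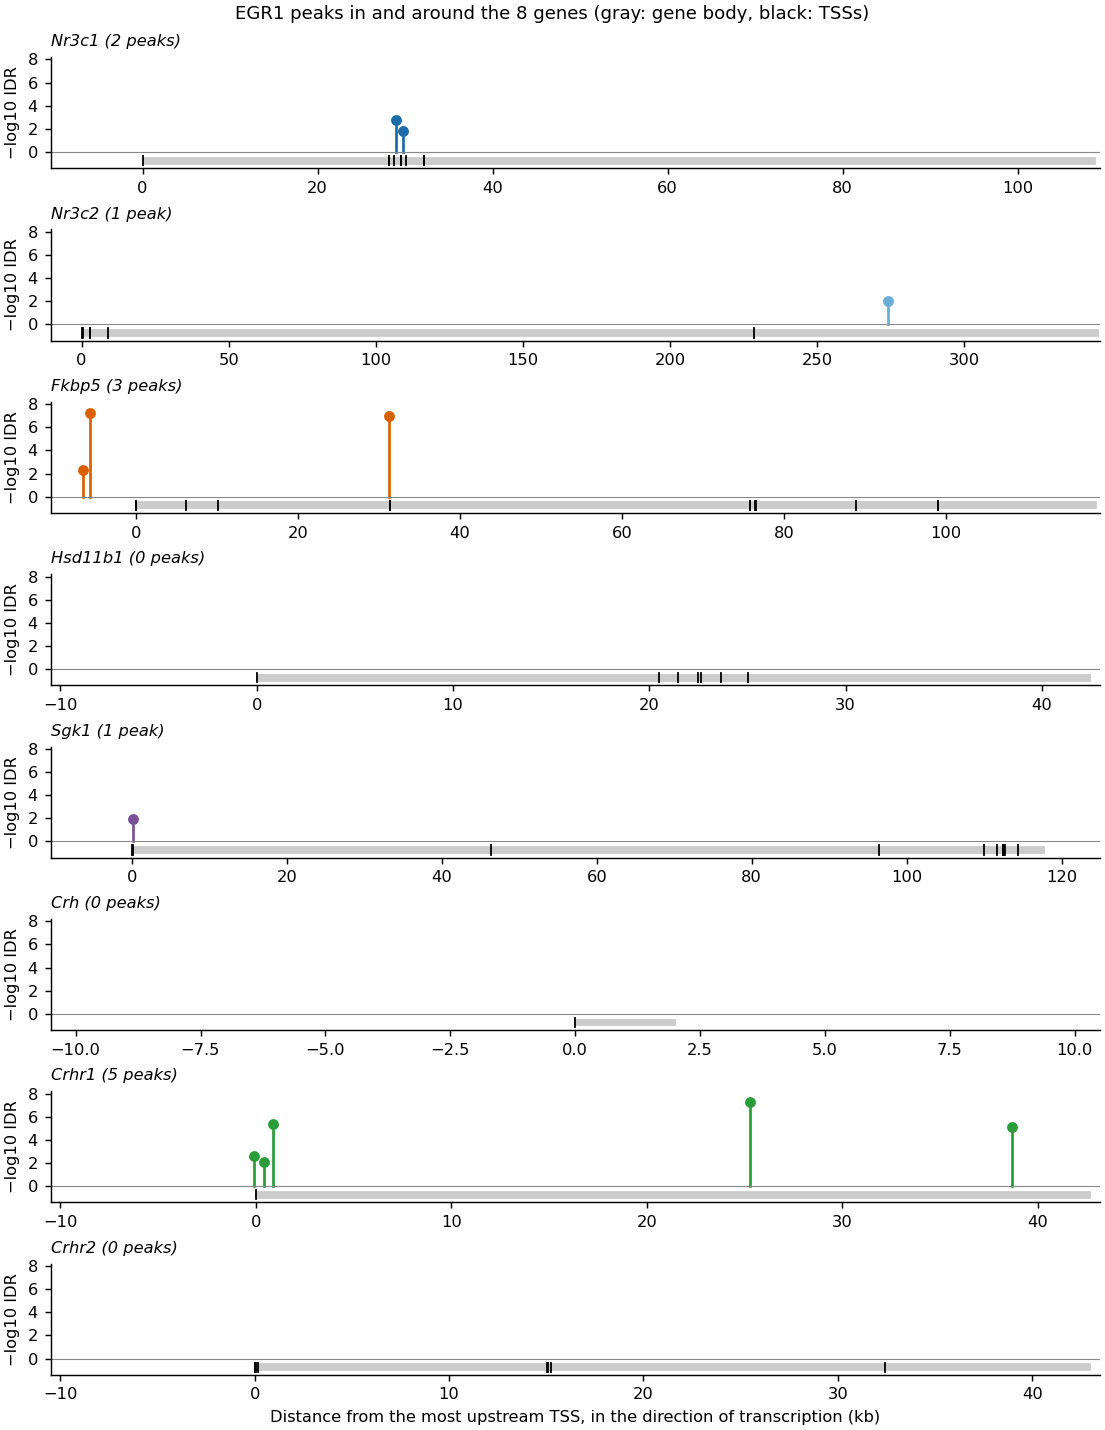
EGR1 peaks in and around the 8 genes, each panel with its own distance axis (kb from the most upstream TSS, in the direction of transcription). Each stem is a peak, its height the −log10 of the IDR and the gray bar is the gene body and the black ticks are TSSs. The stems of Crhr1 peak 4, Fkbp5 peak 2 and Fkbp5 peak 3 are the tallest, while Hsd11b1, Crh and Crhr2 have none.

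**Figure D2:**
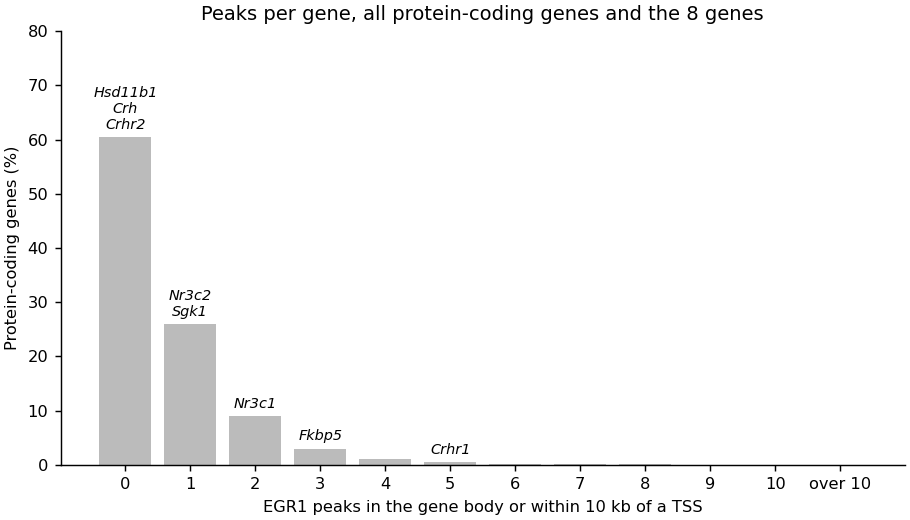
Share of protein-coding genes (y axis, percent) by the number of EGR1 peaks assigned to them (x axis), with the 8 genes named above the bar of their count. The bar at 0 holds 60.4% of the genes and that at 5, where Crhr1 sits, holds 0.456%.

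Nr3c1, which encodes the glucocorticoid receptor, had both of its peaks at a group of alternative promoters (chromosome 18, minus strand, gene body of 108.9 kb). This group lay between the first and last annotated TSSs, nearer the last, which was 32.19 kb downstream of the first. Of the 9 TSSs of Nr3c1, 6 had a peak centre within 2 kb, and all 6 lay between 28.12 and 30.14 kb downstream of the first annotated TSS. Nr3c1 peak 1 (chr18:39490242-39490691) covered the TSS of the transcript Nr3c1-203, with its centre 208 bp downstream of it, and had an IDR of 0.00191. At 450 bp it was wider than 99.8% of all EGR1 peaks. Nr3c1 peak 2 (chr18:39489530-39489779) was centred 192 bp downstream of the TSS of Nr3c1-201, in an untranslated exon, with an IDR of 0.0143, a value that 94.3% of the peaks fell below. Together the peaks spanned 1162 bp and contained 89 CpGs, the most of any gene here. Of these 9 GENCODE TSSs, only that of Nr3c1-203 lay under a peak. RefSeq has an Nr3c1 mRNA start at 39489776, under peak 2, and the peak centre was 122 bp downstream of it. It also has a predicted Nr3c1 mRNA start at 39490534, under peak 1, with the peak centre 68 bp downstream. The outlying promoters of Nr3c1 were more than 2 kb from any peak centre. The TSS of Nr3c1-209, the most upstream, was 15184 bp from the nearest, and those of Nr3c1-204 and Nr3c1-202 were 2409 and 2422 bp from that of peak 2. These 3 TSSs had observed/expected CpG ratios of 0.353 to 0.404 in the 500 bp around them, against 0.569 to 1.07 at the 6 with a peak. Nr3c1 peak 1 contained 1 exact EGR1 motif, 188 bp from its centre, and peak 2 contained 0 exact sites but 2 with 1 mismatch.

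Nr3c2, which encodes the mineralocorticoid receptor and binds glucocorticoids with high affinity, showed the opposite arrangement. None of its 7 TSSs had a peak within 2 kb, and its single peak (IDR 0.00988) lay in an intron 79.3% of the way along the 345.6-kb gene. That peak was 271283 bp downstream of the nearest Nr3c2 start in RefSeq, and 45600 bp from the noncoding transcript Nr3c2-205 of GENCODE. The CpG ratios around these TSSs were 0.686 and 0.629 for Nr3c2-207 and Nr3c2-204 and 0.146 to 0.539 for the other 5, and the window of Nr3c2-207 contained an exact EGR1 motif. Within the peak the CpG ratio was 0.349, below the mean of 0.511 in equally wide windows placed 5 kb away on both sides. Its 1 near match to the motif read GTGTGGGCG on the minus strand (C2T against GCGTGGGCG, counting positions from 1 at the 5′ end of the motif, with the motif's base first), and 26.5% of the peak was repeat-masked sequence.

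Fkbp5 encodes a co-chaperone of the receptor complex that lowers its affinity for the hormone and is itself induced by glucocorticoids. Its 14 TSSs spread over 99.02 kb, and its 3 peaks fell at a single one of these promoters and upstream of the gene. Fkbp5 peak 3 (chr17:28486148-28486313, IDR 1.13e-07) covered the TSS of Fkbp5-201, at 28486149, which is also the RefSeq start of the gene and lies 31.38 kb downstream of the first GENCODE TSS. This TSS and that of Fkbp5-214, next to it, had the highest CpG ratio of the 58 TSSs (1.12), and they were the only Fkbp5 TSSs with a peak within 2 kb. An exact EGR1 motif on the minus strand, at chr17:28486144-28486152, ran across the edge of this peak at the TSS with 4 of its 9 bases outside, so it was not counted among the sites inside peaks. The first annotated TSS of Fkbp5 had a CpG ratio of 0.459 and its nearest peak centre was 5633 bp upstream.

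The 2 upstream peaks of Fkbp5 lay 894 bp apart and were unlike in IDR, base composition and motif content. Fkbp5 peak 2 had an IDR of 5.69e-08, lower than all but 4.07% of the peaks, in a short interval of 123 bp with 74.8% GC and an observed/expected CpG ratio of 1.24, higher than in 99.5% of the peaks. Its 2 exact EGR1 motifs were centred 3 and 53 bp from the peak centre, as the printed sequence shows. Fkbp5 peak 1 (chr17:28523923-28524186) had an IDR of 0.00521, 51.14% GC, a CpG ratio of 0.29, and 0 sites even with 1 mismatch allowed. Neither is placed closest to Fkbp5. In GENCODE, peak 2 was centred 12 bp upstream of the TSS of the noncoding gene Gm20109. It was 133 bp upstream of that of E230001N04Rik, another noncoding gene, and peak 1 was 761 bp downstream of the latter. RefSeq starts E230001N04Rik elsewhere, at 28522656, so that peaks 2 and 1 were 504 and 1398 bp downstream of it. From the RefSeq start of Fkbp5 these peaks were 37011 and 37905 bp away. Both peaks also met the assignment rule for the protein-coding gene Armc12. Peak 1 was 6752 bp and peak 2 was 7646 bp upstream of its nearest GENCODE TSS, against 6527 and 5633 bp upstream of the first TSS of Fkbp5. Which of these genes, if any, the peaks act on cannot be told from positions.

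Sgk1 encodes a serine/threonine kinase, induced by corticosteroids, that acts on ion channels and transporters. Its 1 peak (chr10:21882136-21882399, IDR 0.0126) covered the first of its 11 TSSs, that of Sgk1-204, and the noncoding Sgk1-211 close by. The next peak on the chromosome was 717124 bp away, which made it the most isolated of the 12. The CpG-rich promoters farther along Sgk1 had no peak: Sgk1-202 and Sgk1-201, with CpG ratios of 0.876 and 0.828, lay 111.6 and 112.4 kb from the peak centre. Of the TSSs under the peak, that of Sgk1-204 had a ratio of 0.512 and that of Sgk1-211 had 0.661. The peak contained a near match, GCGGGGACG (G7A against GCGGGGGCG), 35 bp from its centre. RefSeq also places the start of the noncoding Gm46215 here, 11 bp from the peak centre. Hsd11b1, whose enzyme regenerates active glucocorticoid from its inert form inside cells, had 0 peaks. Its 7 TSSs had CpG ratios of 0.097 to 0.402. The nearest peak centre was 47.94 kb past the end of the gene and 65.33 kb from the closest Hsd11b1 TSS. It lay 48 bp from the TSS of A130010J15Rik.

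**Figure D3:**
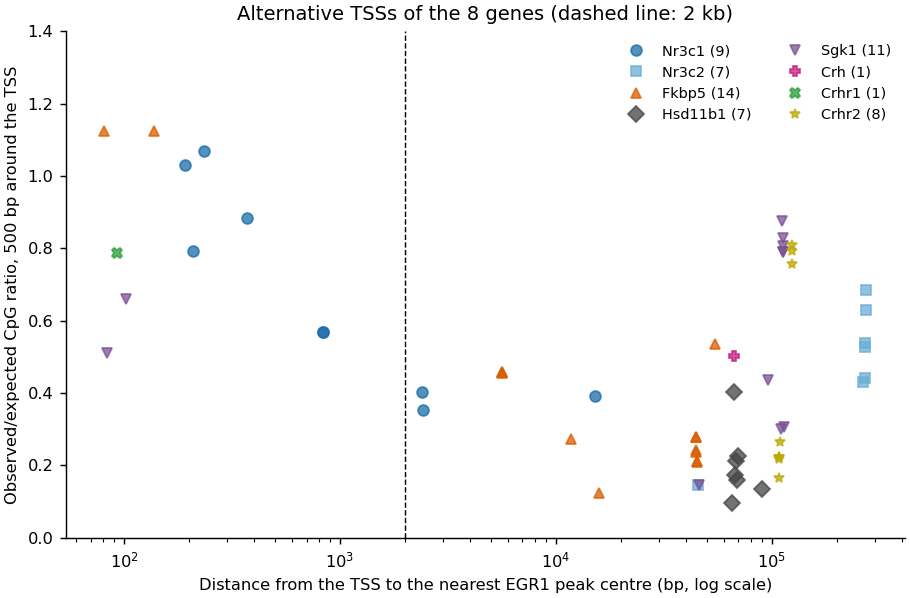
Observed/expected CpG ratio in the 500 bp around each TSS of the 8 genes (y axis) against the distance from the TSS to the nearest EGR1 peak centre (x axis, bp, log scale), with 1 symbol per TSS and the number of TSSs per gene in the legend. The 11 TSSs left of the dashed line at 2 kb have ratios from 0.512 to 1.12, and the TSSs to its right, from 0.097 to 0.876, include CpG-rich ones of Sgk1, Crhr2 and Nr3c2 beside CpG-poor ones of the same genes.

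Crhr1, the main CRH receptor of the cortex, had 3 peaks at its promoter and 2 inside the gene. The promoter peaks spanned 1245 bp and held 68 CpGs. Crhr1 peak 1 (chr11:104132631-104132894) covered its single GENCODE TSS with an IDR of 0.00245, peak 2 (chr11:104133135-104133389) was centred 407 bp downstream with 0.00757, and peak 3 was centred 895 bp downstream with 3.84e-06. The lowest IDR of the cluster was thus in the first intron and not at the TSS. CpG ratios were 0.762, 0.927 and 0.826 from peak 1 to peak 3, and those of the flanking windows were 0.181, 0.201 and 0.172.

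Crhr1 peak 4 had the lowest IDR of the 12, 4.97e-08, which only 3.41% of all EGR1 peaks fell below, although it lay 25302 bp downstream of the TSS in an intron. Its CpG ratio of 0.48 did not exceed that of its flanks (0.523), a feature it shared with the Nr3c2 peak alone among the 12. In RefSeq, a predicted noncoding gene on the opposite strand, Gm35469, begins 566 bp from the centre of this peak. Crhr1 peak 5 (chr11:104171412-104171624, IDR 7.98e-06) lay 38663 bp downstream of the TSS, also in an intron, with a CpG ratio of 0.529. RefSeq has a predicted Crhr1 mRNA start at 104163897, between these peaks, 5740 bp downstream of the centre of peak 4 and 7621 bp upstream of that of peak 5. None of the 5 Crhr1 peaks held an exact EGR1 motif, but each held at least 1 site with a single mismatch. In peak 1 the site GAGGGGGCG (C2A against GCGGGGGCG) was 6 bp from the centre, in peak 3 GCGGGGGTG (C8T) was 17 bp from it, and in peak 4 GCGGGGGAG (C8A, minus strand) was 11 bp from it. Peak 2 held GCGTGGGCA (G9A against GCGTGGGCG) and GAGTGGGCG (C2A), both about as far from the centre, at 92 and 89 bp, and peak 5 held GTGTGGGCG (C2T), 42 bp from it.

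Crh, the gene of the hormone itself, and Crhr2, the second CRH receptor, had 0 peaks. The nearest peak centre to the single Crh TSS was 66.7 kb downstream, at the TSS of 1700064H15Rik (IDR 0.00809), and the CpG ratio at that Crh TSS was 0.502. Among genes within a 1.5-fold range of the length of Crh, 29.5% had a peak. For Crhr2 the nearest peak to any TSS was 107.6 kb away, at the TSS of Ggct (IDR 6.2e-08), although 3 of its 8 TSSs were CpG-rich, with ratios of 0.757 to 0.808. Among genes of the length of Crhr2, 45.4% had a peak. The list holds only peaks that passed the IDR limit, so weaker or less reproducible binding at these genes was not measured.

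Over all alternative promoters, 11 of the 58 TSSs had a peak centre within 2 kb, against 24.5% of the TSSs of all protein-coding genes. Of the 58, 5 lay under a peak, and the share of all TSSs under a peak is not given here. The share within 2 kb of a peak centre followed CpG content as it did in the whole genome. Among TSSs with a CpG ratio of 0.6 or more, 8 of 18 had a peak (44.4%, against 46.7% of all such TSSs), and below 0.6 it was 3 of 40 (7.5%, against 8.52%). Within the CpG-rich class the genes were split: 4 of 4 TSSs of Nr3c1, 2 of 2 of Fkbp5 and 1 of 1 of Crhr1 had a peak, as did 1 of 6 of Sgk1, 0 of 2 of Nr3c2 and 0 of 3 of Crhr2. TSSs of a gene often lie within a few bases of each other and share a peak, so these counts are not independent.

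The 12 peaks had higher IDRs than the list as a whole, with a median of 0.00218 against 0.000321, and 5 of 12 had an IDR of 0.001 or less (41.7%, 95% Wilson interval 19.3 to 68.0) against 59.6% of all peaks. They split into 3 peaks near the low end of the scale, with at most 8.23% of the list below them (Crhr1 peak 4, Fkbp5 peaks 2 and 3) 2 between these and the list's median, and 7 above that median, with both peaks of Nr3c1 and those of Nr3c2 and Sgk1 among the latter. By position the order was the reverse of that over all peaks, although the splits are unlike. The 12 were split by the TSSs of their own gene, and all peaks by those of any gene. The 7 peaks within 2 kb of a TSS of their gene had a median IDR of 0.00245 and the 5 farther ones 7.98e-06, whereas the medians over all peaks were 9.91e-05 near a TSS and 0.00125 away from one. The farther ones include Fkbp5 peaks 1 and 2, which are within 2 kb of the TSS of another gene. They range from 4.97e-08 to 0.00988, while the near ones range from 1.13e-07 to 0.0143, so both groups span nearly the whole scale. No test was made on so few peaks.

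**Figure D4:**
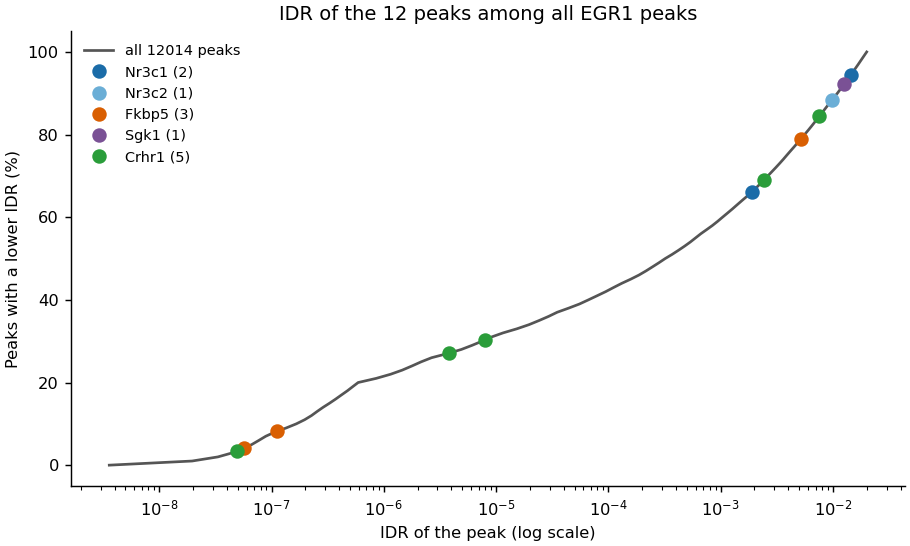
Cumulative distribution of the IDR over all 12014 EGR1 peaks (x axis, log scale, y axis, percent of peaks with a lower IDR), with the 12 peaks of the stress axis genes as coloured points on the curve. The points of Nr3c1, Nr3c2 and Sgk1 lie at 66.2% or above, while those of Fkbp5 run from 4.07% to 79.0% and those of Crhr1 from 3.41% to 84.4%.

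In sequence the peaks were GC-rich, with a median GC content of 65.95% (all peaks, 60.4%) and a median CpG ratio of 0.794 (all peaks, 0.5996). Of the 12, 9 lay within 2 kb of a TSS of any gene. All EGR1 peaks so placed had medians close to these, 65.52% GC and a CpG ratio of 0.761. The CpG ratio was higher than in the flanking windows for 10 of 12, against 85.4% of all peaks, and the exceptions were the intronic peaks of Nr3c2 and Crhr1 named above. An exact EGR1 motif was present in 2 of 12 (16.7%, 95% Wilson interval 4.7 to 44.8), Nr3c1 peak 1 and Fkbp5 peak 2, against 16.6% of all peaks. With 1 mismatch allowed, 10 of 12 had a site (83.3%, 55.2 to 95.3), against 69.8% of all peaks and 3.33% of all flanking windows. Fkbp5 peaks 1 and 3 were those without. The exact sites were all of the form GCGGGGGCG, and GCGTGGGCG was in 0 of 12 (interval 0 to 24.2), against 4.41% of all peaks.

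Other short motifs were counted in the same way on both strands. The GC box GGGCGG, read by SP-family factors which can overlap an EGR1 site, was in 9 of 12, against 55.8% of all peaks. The glucocorticoid receptor half-site AGAACA was in 2 of 12, Nr3c2 peak 1 and Fkbp5 peak 2, against 12.5% of all peaks, and the full element of 2 half-sites 3 bases apart was in 0 of 12, against 0.0168% of all peaks. The cAMP response element TGACGTCA was in 0 of 12 as well, against 1.3%. A match to such letters is a description of the sequence, not a sign of binding.

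The peaks of these genes lay close together. For 7 of 12 the next peak centre was within 1 kb (58.3%, 95% Wilson interval 32.0 to 80.7), against 14.3% of all peaks. All 7 belong to the promoter peaks of Crhr1 and Nr3c1 and the upstream pair of Fkbp5, so they amount to 3 clusters, and the intervals, which cover counting error only, treat neighbouring peaks as separate. Just outside the rule, a peak 15184 bp upstream of the first Nr3c1 TSS (chr18:39534481-39534730, IDR 0.000272) had a lower IDR than both assigned Nr3c1 peaks, a CpG ratio of 0.326 and 0 EGR1 sites. A peak 11720 bp past the end of Nr3c2 (chr8:77256608-77256857) had an IDR of 0.00149, also lower than that of its assigned peak. The farthest upstream peak inside the rule was Fkbp5 peak 1, 6527 bp from the first TSS.

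**Figure D5:**
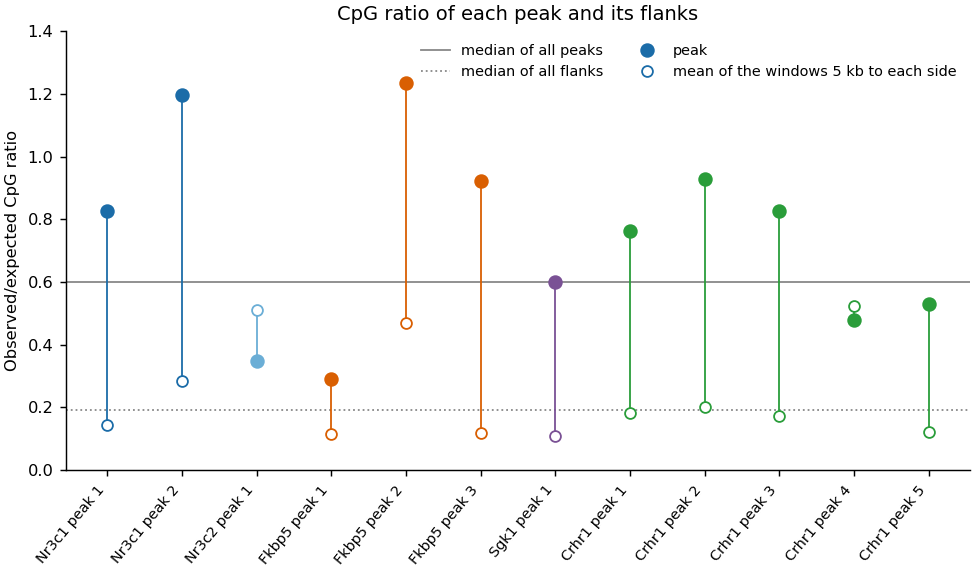
Observed/expected CpG ratio (y axis) of each of the 12 peaks (filled circles) and the mean of its flanking windows 5 kb to each side (open circles), with lines at the medians over all peaks and all flanks. The open circle lies above the filled one for Nr3c2 peak 1 and Crhr1 peak 4 and below it for the other 10.

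Genes that work with the 8 were described with the same rule, as lists of hormones and their receptors, receptor chaperones, steroid enzymes, glucocorticoid-induced genes and receptor coregulators. Of 50 genes, 27 had a peak (54.0%) and 22 had one within 2 kb of a TSS (44.0%), to be read against the shares of 39.6% and 29.6% over all protein-coding genes. The hormones and receptors had the fewest near a TSS, with 4 of 11 genes with a peak and 1 within 2 kb, that of the neuropeptide gene Adcyap1 (IDR 0.00432). Receptor chaperones had 6 of 10, led by Hspa8, a constitutive heat shock protein (IDR 3.16e-08), while Hsp90ab1, the chaperone that holds the unliganded receptor, had 3 peaks. Receptor coregulators had 6 of 8, all 6 with a peak within 2 kb of a TSS. Glucocorticoid-induced genes had 8 of 11, with 6 peaks at the clock gene Per1 (lowest IDR 2.28e-08) and a peak shared by Mt1 and Mt2. Steroid enzymes had 3 of 10, with the lowest IDR at Srd5a1 (2.99e-07) and 2 peaks at H6pd, which supplies the cofactor of the Hsd11b1 enzyme.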

How the data were processed

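EGR1 ChIP-seq libraries were made by the authors from frontal cortices of mice at 6 weeks. Reads were trimmed, mapped to mm10 with Bowtie, and peaks were called per replicate with SPP and kept at an IDR of 2% or less; the submitters' processing notes name Bowtie2 2.2.9 and bedtools 2.26.0. The deposited list of merged peaks gives chromosome, start, end and the IDR, a p-value-like quantity read as a q-value, without counts. Depth behind each peak is therefore unknown, and precision is limited to shares over peaks. An input DNA file was not analysed here.

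Positions were read as BED intervals, which the authors do not state, and are printed counted from 1. Peak centres were compared with GENCODE M21, with RefSeq (GRCm38.p6) as a second annotation, and sequences were taken from GRCm38.p6. Peaks on scaffolds (76) were left out of sequence counts. CpG ratios are observed over expected, flanks are windows of peak width 5 kb to each side, and intervals are 95% Wilson intervals.

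Every member gene, every assigned peak and the nearest peak of genes without one are named, and from each related list the gene with the lowest IDR and that with the most peaks. For the coregulators these genes are not reported here. Mt1, Mt2 and genes that neighbour a peak were named after their values were seen. The members and lists were chosen with earlier results of these data known. No test was run, since there is 1 merged list. Windows, annotation, IDR limit, motif and coordinate convention were varied. Python 3.11.15, pandas 2.3.3, numpy 2.4.6, scipy 1.17.1, matplotlib 3.10.9, pysam 0.24.0 and samtools 1.23.1 were used. On simulated data, 200 of 200 genes recovered their peaks and 200 of 200 sequences their motif state.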

Additional observations from a re-analysis of the deposited data

How the results depend on the processing

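The count of 12 peaks came to 9 to 13 with TSS windows of 5 or 20 kb, with the TSS window alone, with any overlap, with basic or protein-coding transcripts, with starts counted from 1 and at an IDR of 0.01 or less, and the count of 5 genes with a peak came to 4 or 5 in those settings. The IDR limit moved them most. At an IDR of 0.001 or less, 5 peaks in 2 genes (Fkbp5 and Crhr1) were left, and the 50% of peaks with the lowest IDR likewise left 5 peaks in 2 genes, with 2 rather than 7 within 2 kb of a TSS. The peaks with an exact EGR1 motif rose from 2 to 10 with 1 mismatch allowed and fell to 0 with GCGTGGGCG alone, and were 3 within 250 bp of the centre, where the site at the edge of Fkbp5 peak 3 is included. The median IDR was 0.00191 with the lowest IDR of each gene and 0.00245 near a TSS. No paired analysis was possible because the 2 replicates were deposited as 1 merged list, which also prevented leaving out a replicate.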
